A study of Caenorhabditis elegans with 2 samples.

Results

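Coding-sequence peaks away from promoters are places inside genes, among the bases that are translated. There a peak was called after pull-down of tagged MADF-3 from young adult Caenorhabditis elegans. A peak was counted here when its summit lay in the coding sequence of a protein-coding transcript and more than 500 bp from every protein-coding 5′ end. Of the 2741 peaks of the series-wide list, 445 (16.2%) met that rule, and in the shorter thresholded lists of single replicates 7.38% (replicate 1) and 6.37% (replicate 2) did. A further 238 of the 683 summits in coding sequence lay within 500 bp of a 5′ end and were not counted. The rest of the list served as reference, with 1214 other peaks away from promoters (in introns, untranslated regions and between genes) and 1082 promoter peaks, whose summits lay within 500 bp of a 5′ end.

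The worms were of strain RW12241, with TY1, EGFP and 3xFLAG sequences inserted by CRISPR at madf-3 (allele st12241, chromosome II), synchronised by bleaching and starvation as L1 larvae and collected whole as young adults of 63 hours. Chromatin was sheared by sonication and immunoprecipitated with an antibody against GFP. The 2 samples are biological replicates of this 1 group, and neither an untagged strain nor a control library was used here, so signal that does not depend on the tagged protein cannot be told apart. Differences between kinds of peak are described with counting intervals and were not tested.

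MADF-3 is named for its MADF domain, a fold related to that of Myb proteins, which in other animals binds DNA or other proteins. Sequence-specific factors are usually found at promoters and enhancers, and coding exons are a less usual place for them. Their strength, their repeatability and their place in the gene are given in turn.

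The strongest coding-sequence peaks did not share 1 obvious look. The windows below reach 100 bp to each side of the summits of the 6 peaks with the highest signal among those met in both replicates and outside the chromosome from which no sequence is shown, and they are printed because the account of strength and repeatability turns on them. Each is written 5′ to 3′ on the strand of its gene, on build ce11, with coding bases in capitals and introns and untranslated bases in lower case. Sequence is from the RefSeq copy of assembly WBcel235.
mdt-26 (chrII:5661675-5661875, plus strand): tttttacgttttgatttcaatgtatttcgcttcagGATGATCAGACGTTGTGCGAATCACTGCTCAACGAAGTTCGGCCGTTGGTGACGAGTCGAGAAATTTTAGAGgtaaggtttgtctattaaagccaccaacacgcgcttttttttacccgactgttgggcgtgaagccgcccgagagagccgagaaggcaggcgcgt
dos-3 (chrIII:835904-836104, minus strand): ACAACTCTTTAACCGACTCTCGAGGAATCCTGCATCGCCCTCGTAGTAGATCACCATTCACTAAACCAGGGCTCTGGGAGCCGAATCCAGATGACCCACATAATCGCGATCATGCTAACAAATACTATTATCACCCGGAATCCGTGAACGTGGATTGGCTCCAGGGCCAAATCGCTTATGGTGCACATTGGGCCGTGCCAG
fubl-1 (chrV:10238211-10238411, minus strand): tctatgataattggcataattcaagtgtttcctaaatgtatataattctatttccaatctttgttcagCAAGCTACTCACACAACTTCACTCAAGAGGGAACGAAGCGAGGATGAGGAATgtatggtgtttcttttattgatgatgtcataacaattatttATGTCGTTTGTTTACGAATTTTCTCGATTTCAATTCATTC
dhcr-7 (chrV:20480887-20481087, minus strand): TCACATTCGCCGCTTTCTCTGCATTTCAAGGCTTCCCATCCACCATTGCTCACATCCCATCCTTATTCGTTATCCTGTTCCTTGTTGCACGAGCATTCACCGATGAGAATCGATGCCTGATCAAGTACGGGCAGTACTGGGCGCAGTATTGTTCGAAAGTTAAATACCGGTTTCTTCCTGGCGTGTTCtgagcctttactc
C26D10.3 (chrII:8326667-8326867, plus strand): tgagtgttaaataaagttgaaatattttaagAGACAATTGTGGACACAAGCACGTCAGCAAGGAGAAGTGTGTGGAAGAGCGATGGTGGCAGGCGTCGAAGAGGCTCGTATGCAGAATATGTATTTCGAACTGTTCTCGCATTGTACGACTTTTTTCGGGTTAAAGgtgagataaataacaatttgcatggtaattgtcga
F31E3.12 (chrIII:6969826-6970026, plus strand): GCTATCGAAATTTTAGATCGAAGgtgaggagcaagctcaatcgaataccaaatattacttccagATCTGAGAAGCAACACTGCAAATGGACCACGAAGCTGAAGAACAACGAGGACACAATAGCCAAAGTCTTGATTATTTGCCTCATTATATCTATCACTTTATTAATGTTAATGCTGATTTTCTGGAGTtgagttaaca
At mdt-26 a small exon of 72 bp sits between introns, and GC was 48.3%. The dos-3 window was coding throughout, with a GC of 51.2%. At fubl-1 the window held 92 coding bases in 2 stretches and had the lowest GC of the 6, 32.3%. Those at dhcr-7 and F31E3.12 ran past the last coding base, and the stop codon itself is in lower case. Of the 10 short sequences searched for below, the C26D10.3, dos-3 and fubl-1 windows held none on either strand.

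Only a few coding-sequence peaks were strong. The signal (the strength given to each peak by the authors' peak caller, with no unit stated) had a median of 65.6 (95% interval of the median 64.4 to 66.9, quartiles 59.7 and 74.0, range 19.3 to 340) over the 445 peaks. The medians were 72.9 (interval 71.5 to 73.9) for other peaks away from promoters and 80.5 (interval 78.0 to 82.7) for promoter peaks. Coding-sequence peaks made up 2 of the 250 strongest peaks of the list (0.800%, exact 95% interval 0.0970 to 2.86%), 47 of the 500 peaks next after rank 500 (9.40%), and 27.1% of the 741 weakest (interval 24.0 to 30.5%). In the far longer ranked list from which the series-wide list was taken, with 113502 peaks, 27.2% of summits lay in coding sequence away from promoters and 20.5% at promoters. The weakest peaks of the list thus held a coding share close to that of all ranked peaks.

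**Figure D1:**
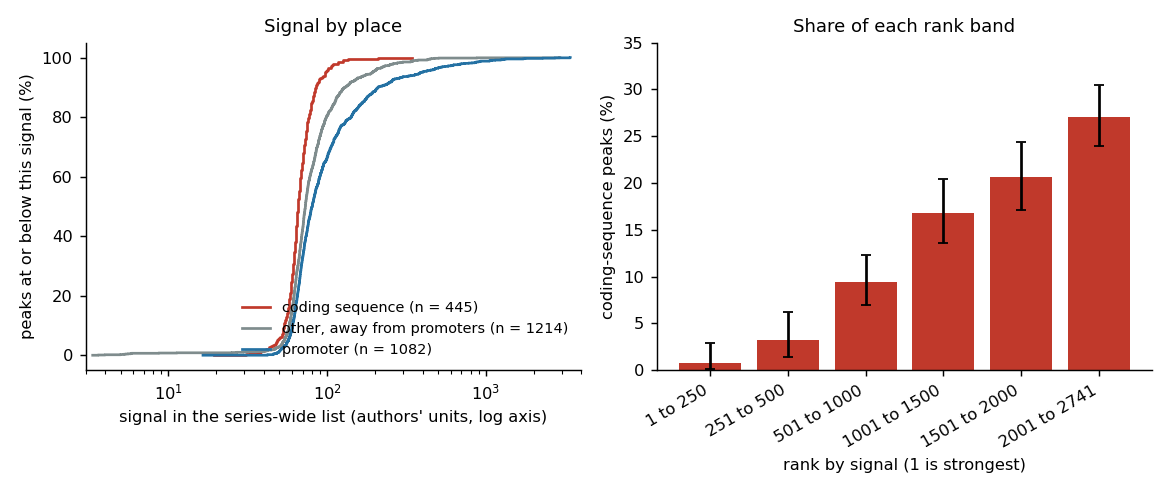
Left, the share of peaks (%) at or below each signal (authors' units, log axis) for coding-sequence peaks (red), other peaks away from promoters (grey) and promoter peaks (blue). Right, coding-sequence peaks as a share (%) of the peaks in each band of rank by signal, with exact 95% intervals as bars. The red curve lies left of the others at the lower quartile, the median and the upper quartile, and the share climbs to 27.1% among the 741 weakest peaks.

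The strongest member lay in mdt-26, which encodes a subunit of the Mediator complex, the bridge between transcription factors and RNA polymerase II. Its peak (WBGene00016115, chrII:5661724-5661908) ranked 82 in the list with a signal of 340. In the replicates' own ranked lists it had 165 in replicate 1 and 138 in replicate 2 (152 ± 19.8, SD, n = 2). The summit, in coding exon 2 of 8, was 594 bp from the 5′ end and so outside the promoter window by under 100 bp, and mdt-26 also has a promoter peak, with the nearest other summit 690 bp away. The peak that followed lay in dos-3 (WBGene00019331, chrIII:835894-836113), which encodes a protein of the family of secreted Notch co-ligands. It ranked 157 with a signal of 208, and had 115.9 in replicate 1 and 77.8 in replicate 2 (96.9 ± 26.9, SD, n = 2). Unlike mdt-26, its summit was deep in the gene, 3022 bp from any 5′ end, in the last of 11 coding exons and 253 bp before the 3′ end.

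After these came a run of peaks of nearly equal strength. At fubl-1, a gene for an RNA- or DNA-binding KH-domain protein of the FUBP kind, the signal was 135, with 66.8 in replicate 1 and 70.5 in replicate 2. This summit was 555 bp from the gene start and 250 bp from an annotated start of a transcript, so it is a coding-sequence peak only by the gene start. D2030.12, which the files do not describe, had a signal of 128, with 68.3 in replicate 1 and 47.7 in replicate 2, in its last coding exon and 98 bp before its 3′ end. In lgc-31, of the ligand-gated ion channel family, the signal was 125, and replicate 2 was the higher with 61.6, against 45.5 in replicate 1. A signal of 125 was also found at dhcr-7, named for a sterol reductase, with 66.7 in replicate 1 and 51 in replicate 2, in a window where 48.5% of the 31-base words occur elsewhere in the genome. The replicates were thus close at fubl-1 and further apart at D2030.12, lgc-31 and dhcr-7, with neither replicate higher throughout.

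Of the remaining 9 among the 15 strongest, lmd-2 (a LysM-domain gene), T28F4.4, C26D10.3, F31E3.12, ndx-3 (of the Nudix hydrolase family), glt-6 (a glutamate transporter), F59B8.1, F25H2.12 and K12C11.1 had signals between 122 and 105. F59B8.1 (48.5 in replicate 1, 50.6 in replicate 2) and F31E3.12 (64.5 and 61.6, in the same order) were the closest between replicates. At glt-6 the replicates were furthest apart, with 35.6 in replicate 1 and 61.9 in replicate 2. F25H2.12 lay in the first coding exon, 59 bp from an annotated transcript start although 725 bp from any gene start, and F59B8.1 was 432 bp from such a start. Of all 15, 12 were met in replicate 1's own thresholded list, 13 in replicate 2's and 10 in both. In 9 of the 15 the summit was in the last coding exon, and 4 of the 15 lay in a gene that also has a promoter peak.

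Few coding-sequence peaks were found in each replicate by itself. A peak counted as met when a peak of the replicate's own thresholded list overlapped it by at least 1 bp. Replicate 1's list met 57 of the 445 (12.8%, interval 9.85 to 16.3%), where the share over all series-wide peaks was 32.7%. Replicate 2's list met 50 (11.2%, interval 8.46 to 14.5%), beside 30.3% over all peaks. Both lists met 17 (3.82%, interval 2.24 to 6.05%), beside 20.9% over all peaks, while 73 were met in exactly 1 replicate and 355 (79.8%) in neither. The share met in both was 17.9% for other peaks away from promoters and 31.2% for promoter peaks.

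The 17 peaks met in both replicates lay in mdt-26, dos-3, fubl-1, D2030.12, dhcr-7, T28F4.4, C26D10.3, F31E3.12, F59B8.1, K12C11.1, hsp-1, arrd-6, lin-12, glrx-5, pck-1, R12B2.8 and stdh-1, of which arrd-6, lin-12, glrx-5, R12B2.8 and stdh-1 were named here after their values were seen. Their signals ran from 86.6 to 340 with a median of 106. At lin-12, which encodes a Notch receptor, the signal was 98.0, and the replicates had nearly the same value with 48.6 in replicate 1 and 47.3 in replicate 2. At pck-1, a gene for the gluconeogenic enzyme PEP carboxykinase, it was 96.2, with 42.1 in replicate 1 and 56.2 in replicate 2. hsp-1, for the constitutive Hsp70 chaperone, had 103, with 64.9 in replicate 1 and 51.8 in replicate 2, in a peak of 55 bp, one of 2 members that were not 220 bp wide (the other is at mdt-26).

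The conservative list, which was made by comparing the true replicates, met more of them: 272 of 445 (61.1%, interval 56.4 to 65.7%), beside 77.2% over all peaks, 76.9% for other peaks away from promoters and 84.3% for promoter peaks. The −log10 of the IDR between the true replicates, a measure of how well a peak keeps its rank, had a median of 2.17 over the 439 coding-sequence peaks that have one, 2.52 for other peaks away from promoters and 2.81 for promoter peaks.

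The share met in both replicates went with signal. No coding-sequence peak with a signal under 80 was met in both replicates, and few peaks of the other kinds were. From 70 to 80 it was 0.407% of other peaks away from promoters and 1.09% of promoter peaks. From 60 to 70 it was 0% and 0.781% in the same order, and under 60 no peak of any kind was. Between 80 and 100 it was 9.09% of other peaks away from promoters and 9.94% of promoter peaks. Of coding-sequence peaks in that band it was 6 of 47 (12.8%, interval 4.83 to 25.7%). At a signal of 100 or more it was 11 of 20 (55.0%, interval 31.5 to 76.9%), beside 83.1% of other peaks away from promoters and 86.8% of promoter peaks. Those last groups reach far higher signals than the 20 coding-sequence peaks do, so the top band is not matched. The conservative list met 21.4% of coding-sequence peaks with a signal under 60 (interval 14.3 to 29.9%), beside 32.4% of other peaks away from promoters and 35.7% of promoter peaks. From 60 to 70 it met 59.3%, beside 62.3% and 66.4% in the same order, and from 70 to 80 87.6%, beside 89.4% and 91.3%. Coding-sequence peaks were thus the lowest in each band under 80, with overlapping intervals, and at 80 and above all 67 of 67 were met.

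**Figure D2:**
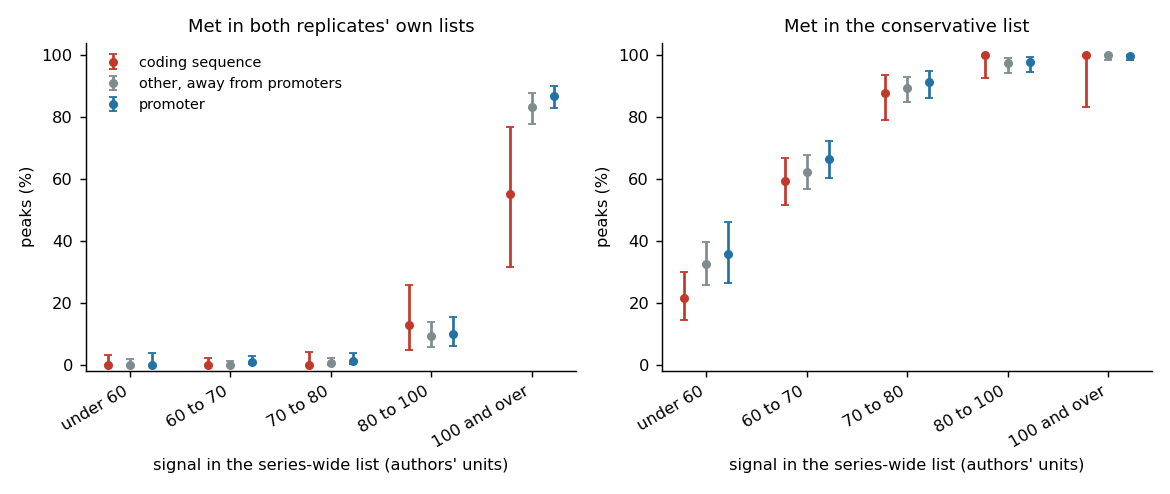
Share of peaks (%, with exact 95% intervals as bars) met in both replicates' own thresholded lists (left) and in the conservative list (right), by signal in the series-wide list (authors' units, 5 bands), for coding-sequence peaks (red), other peaks away from promoters (grey) and promoter peaks (blue). The intervals of the 3 kinds overlap in each band under 100 in the left panel, and above it 55.0% of the red group were met in both replicates, against 83.1% and 86.8% of the grey and blue ones.

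Coding-sequence peaks were kept on a score from both replicates, and most had signals in a narrow range (quartiles 59.7 and 74.0). Among them, the size of a peak in 1 replicate told little of its size in the other. The same held for the other kinds of peak under a signal of 100. In the replicates' own ranked lists, which reach down to weak peaks, 436 members had a value in replicate 1 and 439 in replicate 2, with medians of 32.3 and 33.2, and 430 had both. The ratio of replicate 1 to replicate 2 had a median of 0.986 (interval 0.951 to 1.03) and 401 of 430 (93.3%) were within 2-fold, beside 94.2% of all peaks. Of the others, 10 were over 2-fold higher in replicate 1 and 19 over 2-fold higher in replicate 2.

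Across these 430 peaks Spearman's rho between the replicates was -0.0236 and Pearson's r of the log2 values 0.127, or -0.0380 and 0.0312 without the 2 strongest. It was 0.380 (Spearman's rho, n = 1166) for other peaks away from promoters and 0.605 (n = 1059) for promoter peaks. The peaks share libraries and depth, and they were kept on a score made from both replicates together. With signals under 100 the 3 kinds had rho of -0.152 (coding sequence, n = 410), -0.0789 (other, n = 933) and -0.116 (promoter, n = 697). The series-wide signal comes from both replicates, so a cap on it limits both values together and lowers rho in each kind. From 60 to 70, rho was -0.603 (coding sequence), -0.566 (other) and -0.638 (promoter). The values under 100 therefore cannot show where the gap in rho between the kinds sat. Coding sequence has few strong peaks.

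**Figure D3:**
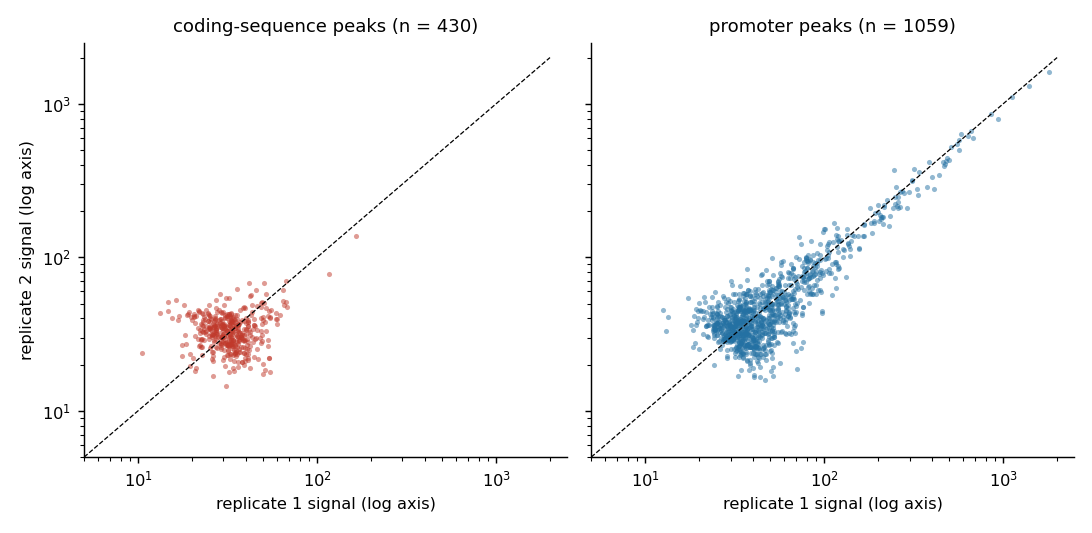
Signal in replicate 1 (x) against replicate 2 (y), both in the authors' units on log axes, for coding-sequence peaks (left, n = 430) and promoter peaks (right, n = 1059); each point is 1 peak and the dashed line marks equal values. The left cloud is round with medians of 32.3 and 33.2 and 2 points beyond it, those of mdt-26 and dos-3, whereas the right one has a long arm along the line.

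Within genes, coding-sequence peaks lay towards the 3′ end. The summit was in the last coding exon for 171 of 445 (38.4%, interval 33.9 to 43.1%), in an internal exon for 264 (59.3%) and in the first coding exon for 10 (2.25%). The same rule admits 19.3 Mb of coding bases, of which 16.1% are in last exons, 82.1% in internal ones and 1.60% in first ones, since bases near 5′ ends are not eligible. Members came at 23.0 per Mb of these bases. Measured to the gene's own 3′ end, 148 summits (33.3%, interval 28.9 to 37.8%) lay 100 to 400 bp before it, compared with 13.0% of eligible bases. From 400 to 500 bp the shares were 3.37% of members and 4.28% of eligible bases, and under 100 bp they were 1.80% and 1.93%. The excess was thus confined to a band of about 300 bp among the bands shown, and beyond 1000 bp members were fewer than the bases would give in all 3 bands.

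In the last exon, 76 of the 171 summits (44.4%, interval 36.9 to 52.2%) were within 100 bp of the last coding base, and 46.4% of the eligible bases of such exons are. Within 200 bp it was 87.7% of summits and 73.3% of bases. Cut into 10 equal stretches of coding sequence, the last held 22.5% of members and 11.3% of eligible bases, and the one before it 16.9% and 11.9%. Summits kept away from exon edges: 133 (29.9%) were within 50 bp of one, and 42.6% of eligible bases are, with a median exon length of 292 bp at members and 275 bp over eligible bases.

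The lean towards the 3′ end was larger among strong peaks. The last coding exon held 39 of 117 members with a signal under 60 (33.3%), 47 of 172 from 60 to 70 (27.3%), 41 of 89 from 70 to 80 (46.1%), 31 of 47 from 80 to 100 (66.0%, interval 50.7 to 79.1%) and 13 of 20 at 100 or more (65.0%, interval 40.8 to 84.6%). It also held 11 of the 17 members met in both replicates (64.7%), 42 of the 73 met in 1 (57.5%) and 118 of the 355 met in neither (33.2%). Of the coding-sequence peaks in each replicate's own thresholded list it held 59.2% (replicate 1) and 54.5% (replicate 2). Members in the last exon had a median signal of 69.9, and 124 of 171 (72.5%, interval 65.2 to 79.1%) were in the conservative list, compared with 64.4 and 143 of 264 (54.2%, interval 47.9 to 60.3%) for those in internal exons. GC was the same in both, with a median of 45.8%. The next protein-coding gene downstream, not counting overlapping ones, began or ended within 1000 bp for 35.1% of genes with a last-exon member. It did for 45.9% of genes with an internal-exon member and 47.2% of all genes with eligible bases. The rule leaves out coding bases within 500 bp of any 5′ end, and so some gene ends with a close downstream gene. The rule's part in the lower share was not tested.

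**Figure D4:**
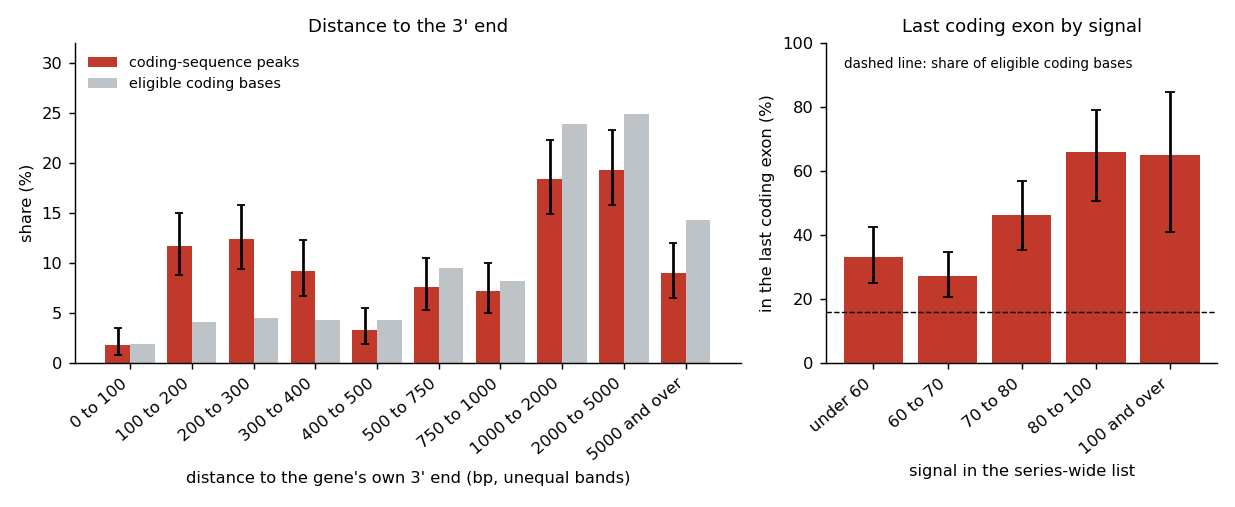
Left, share (%) of coding-sequence peaks (red, with exact 95% intervals as bars) and of eligible coding bases (grey) by distance to the gene's own 3′ end in bp, in unequal bands. Right, share (%) of coding-sequence peaks in the last coding exon by signal in the series-wide list, with exact 95% intervals as bars and the 16.1% of eligible bases as a dashed line. Red exceeds grey between 100 and 400 bp, and the share in the last exon reaches 66.0% at signals from 80 to 100.

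The peaks were spread thinly over many genes. They lay in 414 genes, or 2.29% of the 18062 protein-coding genes with eligible bases, and 25 genes held 2 or more. In 5 genes 3 or more were found. The yolk protein gene vit-6 held 4, at 1698, 2939, 4143 and 5068 bp from its 5′ end with signals of 78.7, 56.8, 78.2 and 90.1. The last of these is in the final exon, with 60.1 in replicate 1 and 36.6 in replicate 2, and vit-6 has no promoter peak. pck-1 held 3 (81.4, 96.2 and 64.6, all in the conservative list), and so did the nuclear Argonaute gene hrde-1 (62.5, 62.5 and 67.6), lea-1 (74.3, 52.7 and 61.3), of the family of late embryogenesis abundant proteins, and pqn-59 (69.6, 54.5 and 83.2), named for a prion-like Q/N-rich stretch. In these 5 genes 1 peak, that of pck-1, was met in both replicates.

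Of the 414 genes, 78 (18.8%, interval 15.2 to 22.9%) also had a promoter peak, whereas 6.12% of all genes with eligible bases had one. Long genes offer more coding bases: the longest 4515 genes by eligible bases hold 57.7% of these bases and 47.8% of the 414 genes, and 8.02% of them have a promoter peak. Members in genes with a promoter peak had a median signal of 68.4 and 28 of 88 in the last exon (31.8%), and those in other genes had 65.1 and 143 of 357 (40.1%).

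Gene lists set by symbol differed in how many of their genes held a member. Of 56 chaperone genes, 7 (12.5%, interval 5.18 to 24.1%) held 10 peaks, where 2.29% of all genes held one and the list has 0.291% of the eligible bases. They were hsp-1, cct-7, hsp-3, dnj-12, hsp-12.3, dnj-28 and hsp-90. After hsp-1 the strongest was cct-7, for a subunit of the cytosolic chaperonin, with 2 peaks of 82.8 (35.7 in replicate 1, 42.3 in replicate 2) and 81.3. Of the Argonaute and small RNA genes 6 of 29 (20.7%, interval 7.99 to 39.7%) held 8 peaks on 0.407% of the eligible bases, all modest in signal. The strongest were in rde-12, a helicase gene of RNA interference, with 72.9 (27.1 in replicate 1, 46.7 in replicate 2), and in hrde-1 with 67.6 (25.4 in replicate 1, 34.1 in replicate 2). None of these 8 was met in both replicates, where 3.82% of all members were, and 2 were in the conservative list, where 61.1% of all members were.

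Genes of translation, muscle and motors also held members at shares above the 2.29% of all genes, on few genes each. For the 2 translation lists, ribosomal proteins and translation factors, the interval held the share of all genes. Of ribosomal protein genes 4 of 49 did (8.16%, interval 2.27 to 19.6%), rpl-24.1 (85.7), rpl-3 (69.8), rpl-13 and rps-3, and 3 of the 4 also have a promoter peak. These genes are short, and the list had 0.899% of members on 0.0497% of the eligible bases. Of translation factors 3 of 31 did (9.68%, interval 2.04 to 25.8%), eif-2Bdelta (67.6), eef-1A.1 (61.5) and eef-1G, with 0.674% of members on 0.149% of the bases. The muscle filament genes act-2 (86.0), unc-22 (67.9) and ttn-1 held 1 each, out of 22 (13.6%, interval 2.91 to 34.9%). This list has long genes, with 0.674% of members on 0.748% of the bases. Among motors klp-7 (75.8), klp-15 (74.7), klp-19 and unc-116 did, out of 29 (13.8%, interval 3.89 to 31.7%), with 0.899% of members on 0.616% of the bases. The windows of act-2 and klp-15 had 41.5% and 40.9% of their 31-base words elsewhere in the genome, so reads of near-identical actin and kinesin genes may be mixed there. Of the 42 eggshell and oocyte genes cpg-1 (69.9), egg-2 (56.4) and puf-11 held 1 each (7.14%, with an upper bound of 19.5%). The vitellogenins had 1 of 6, vit-6.

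Among large families, chemoreceptors and F-box genes held members at shares whose intervals lay below the 2.29% of all genes. Chemoreceptor genes, taken as those whose symbol starts with sr or str-, had 4 of 1357 (0.295%, interval 0.0804 to 0.753%) although they hold 4.65% of the eligible bases. The 4 were srx-65 (70.9), srlf-1 (67.4), str-187 and str-255, and whether each gene on the list encodes a receptor was not checked. F-box genes had 2 of 325 (0.615%, interval 0.0746 to 2.21%) on 1.21% of the bases, fbxc-12, with 66.3 and 87.7% of its 31-base words repeated, and fbxa-199, with 60.8. For the next 3 families the interval held the share of all genes. C-type lectins had 3 of 238 (1.26%, interval 0.261 to 3.64%), clec-264 (82.6), clec-239 (65.3) and clec-196, and cuticle collagens 2 of 175 (1.14%, interval 0.139 to 4.07%), col-111 (82.1) and col-38 (69.2). Nuclear hormone receptors had 4 of 268 (1.49%, interval 0.408 to 3.78%), with nhr-88 (83.2) and nhr-105 (73.9) ahead of nhr-173 and nhr-61. Single genes held a member among neuropeptides and insulins (nlp-16, 73.7, 1 of 92, 1.09%) and the extracellular matrix (ost-1, 67.4, 1 of 16, 6.25%). The same held for nuclear pores (npp-1, 64.1, 1 of 26, 3.85%) and germ granules (glh-1, 81.9, 1 of 14, 7.14%). In the madf family itself 1 of 10 did (madf-10, 83.7, with 49.1 in replicate 1 and 51 in replicate 2). In the intestine list 2 of 62 did (3.23%), asp-5 (78.9) and fat-4 (61.1). From the neuropeptides to the intestine list, each interval held the 2.29% of all genes. No member lay in a histone gene, of which only 5 have eligible bases, and major sperm protein genes have none.

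The markers set for cell types gave no tissue a lead. Intestine had 1 of 4 genes (vit-6), germline 1 of 3 (glh-1), muscle 0 of 3, epidermis 0 of 2 and neurons 0 of 2. The animals were taken whole, so binding in few cells and weak binding in many cannot be told apart.

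On the chromosomes, X held 48 of the 445 (10.8%, interval 8.06 to 14%) and 15.1% of the eligible coding bases, compared with 18.0% of other peaks away from promoters and 5.45% of promoter peaks. Among the stronger members, those in the 1370 strongest peaks of the list, X held 5.83%. Of the coding-sequence peaks in replicate 1's own thresholded list X held 7.04%, and of those in replicate 2's 3.64%. III held 91 (20.4%, interval 16.8 to 24.5%) on 14.8% of the bases. The other autosomes held 19.1% (I), 14.4% (II), 13.9% (IV) and 21.3% (V) of members, on 16.4%, 16.2%, 16.0% and 21.4% of the bases.

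Coding-sequence summits were richer in GC than coding bases at large. The window of 100 bp to each side of the summit had a median GC of 45.8% (quartiles 41.3 and 49.8%), and 363 of 445 (81.6%, interval 77.7 to 85.1%) were above the median of 39.8% in a grid of 38661 eligible coding windows. For other peaks away from promoters the median was 43.8% and for promoter peaks 42.3%. Set against nearby coding sequence, the gap was small. Windows 400 to 600 bp away that were mostly coding, in the same gene or in another, had a median of 43.8%. Of 340 members with such a flank, 214 (62.9%, interval 57.6 to 68.1%) were above their own coding flank. The median difference of summit minus flank over all 340 was 1.49 points (quartiles -2.49 and 5.47). Mostly non-coding flanks had 33.8%. The 17 members met in both replicates had a median of 41.3% and the 355 met in neither 45.8%. GC affects how well fragments are amplified and sequenced, and its part in these peaks was not tested.

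**Figure D5:**
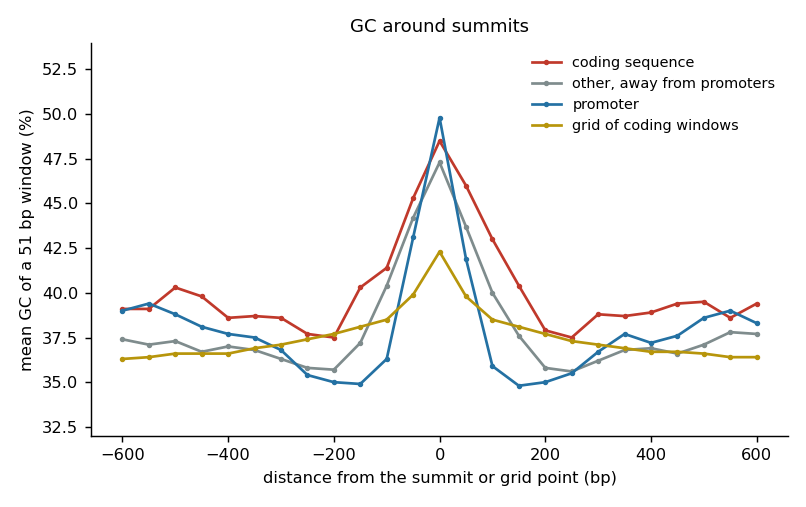
Mean GC (%) of 51 bp windows by distance from the summit in bp, for coding-sequence peaks (red), other peaks away from promoters (grey) and promoter peaks (blue), and around the points of a grid of eligible coding windows (gold). The red line reaches 48.5% at the summit, against 47.3% (grey), 49.8% (blue) and 42.3% (gold), and is the broadest of the 3 lines of peaks.

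Of the 10 short sequences, the letters that mark many other peaks of the list were at the level of ordinary coding sequence here. Both strands were searched, and GAGAGA and GAGGAG can overlap within a longer GA run. GCGCGC was in 2 of 445 windows (0.449%, interval 0.0545 to 1.61%), in 9.06% of other peaks away from promoters, in 14.7% of promoter peaks and in 0.437% of the coding grid. TTCCCGC was in 7 (1.57%), beside 3.87%, 7.39% and 1.30% in the same order. GAGAGA was in 54 (12.1%), beside 22.7%, 21.4% and 10.1%. GAGGAG was the exception, in 75 (16.9%, interval 13.5 to 20.7%), beside 11.4% of other peaks away from promoters, 13.7% of promoter peaks and 10.2% of the grid, and it was in 13.0% of the members' own coding flanks. The AT-rich TATAAA was in 6.29% of members and 13.0% of the grid, and the run TTTTTTTT in 4.49% and 8.42%. For GAAGAA (27% and 31.3%), CACGTG (6.29% and 4.72%), TTTCAG (30.3% and 38.1%) and TTGTTG (21.8% and 22.5%), members are again given before the grid. A match is a description of the letters in these windows.

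Few members lay in repeated sequence. Over 50% of the 31-base words of the window were found elsewhere in the genome for 4 of 445 (0.899%, interval 0.245 to 2.29%), in fbxc-12, gpd-4, maph-1.2 and phat-3, compared with 122 of 1214 other peaks away from promoters, 1.94% of promoter peaks and 3.28% of the grid. A summit inside an annotated non-coding RNA gene was found for 1 member (0.225%), at C17G10.14, of the annotated class ncRNA. Genes of that class overlap 0.228% of the eligible coding bases, and those of the class antisense RNA, without a member, 0.105%. No summit was in the coding sequence of 2 genes. Another summit was within 500 bp for 48 members (10.8%), compared with 8.65% of other peaks away from promoters and 7.67% of promoter peaks.

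The limit of 500 bp split a continuous range. Just inside it were F22B7.9 at 506 bp with a signal of 32.6, gpd-2 at 510 bp with 77.4 and tmem-107 at 510 bp with 100, and just outside it nlp-59 at 500 bp with 65.7, emb-8 at 499 bp with 83.0 and rpn-13 at 499 bp with 67.0. An annotated transcript start lay within 500 bp of 49 members (11.0%, interval 8.26 to 14.3%), which are away from gene starts but not from every transcript start.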

How the data were processed

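Chromatin immunoprecipitation of MADF-3 tagged with EGFP was measured in 2 biological replicates, and the deposited files are peak lists on build ce11 scored by the irreproducible discovery rate (IDR). The deposited signal is the strength that the authors' caller gave each peak, and because no source used here states its scaling, signals were compared within a list. The score is a whole number up to 1000 that the authors made from the IDR, and the −log10 of the IDR between the true replicates was also deposited by the authors. The aligner, the peak caller and its control: not given in the sources used here. Without read counts in the lists the depth is unknown. Intervals (exact Clopper-Pearson, or distribution-free for medians, 95%) cover counting of peaks only.

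The members were taken from the series-wide thresholded list, with the summit at the deposited offset, Ensembl release 115 genes and RefSeq sequence, both of assembly WBcel235, which is ce11 (no peak runs past a chromosome's length there). A 5′ end is a gene's annotated start. Coding exons are those of the longest coding transcript at the summit. Eligible bases are coding bases more than 500 bp from every 5′ end, and the grid takes 1 window every 500 bp of them. A replicate's signal is the highest of the peaks in its own ranked list that overlap a member. Gene lists were matched by symbol, and the genes named are those of the 15 strongest members, those with 3 or more members, the 2 strongest of each list with a member, and those in counts of 5 or fewer. Members and lists were chosen with earlier results of these data known. Alternatives were the conservative list, the 1370 strongest peaks, each replicate's list, limits of 200 and 1000 bp, every transcript start, other overlap rules, ranked lists, any transcript, 1 gene per summit and narrower windows. Python 3.11.15, NumPy 2.4.6, pandas 2.3.3, SciPy 1.17.1 and Matplotlib 3.10.9 were used, and the scripts were tested on simulated data.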

Additional observations from a re-analysis of the deposited data

Results flagged for a closer look

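Some coding-sequence peaks of high score are not in the series-wide thresholded list. The ranked list made from both replicates held 215 peaks that reach the lowest score of the thresholded list, 830, and are missing from it. Of these, 19 (8.84%, exact 95% interval 5.40 to 13.5%) had their summit in coding sequence more than 500 bp from every 5′ end. That share was below the 16.2% of the series-wide list and the 27.2% of all ranked peaks, so coding sequence was not in excess here. The 19 peaks were singled out because they carry signal in data that the account above does not use. They pass a fixed limit, the 3 peaks that a count of 0 allows, which is not a number expected among the 215. Their median signal was 85.2 and the highest 139, compared with a median of 65.6 and a maximum of 340 for the 445 members. The 2 strongest were in Y8A9A.2 (139, chrII:3796463-3796682) and H03A11.2 (138, chrX:15228117-15228336). H03A11.2, ZC247.1 and ZC178.2 held 3 each, ttn-1 held 4 and Y8A9A.2 2, and cla-1, Y95D11A.5, clec-80 and nsph-3.1 held 1 each. X had 3 of the 19, all in H03A11.2. The thresholded list was made with 1 further input file whose content no source used here states, and its part in their absence was not tested.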

How the results depend on the processing

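The 9 results were recomputed under 77 alternatives, of which 47 moved less than the interval of the value (for genes, under 1.5-fold) and 30 moved more. With the 1370 strongest peaks alone, coding sequence held 8.76% of peaks (reported 16.2%), 14.2% of members were met in both replicates (3.82%), 95% in the conservative list (61.1%), the median signal was 81.8 (65.6), X held 5.83% (10.8%), the last exon 59.2% (38.4%), GC was 44.8% (45.8%) and 0.642% of genes with eligible bases held a member (2.29%). In the lists of replicates 2 and 1 alone, the coding share was 6.37 to 7.38%, the conservative share 76.1 to 78.2%, the median signal 48.9 in both (on another scale), the replicate ratio 0.810 to 1.35, X 3.64 to 7.04%, the last exon 54.5 to 59.2%, GC 44.8% in both and the genes 0.299 to 0.388%. The ratio there follows from selecting on 1 replicate. The coding share was 19.8% at 200 bp, 11.2% at 1000 bp and 14.4% with every transcript start, all by construction. The last exon held 43.7% in the conservative list, where the cause was not tested. With ranked replicate lists 96.6% of members were met in both, since these lists hold 77320 and 79846 peaks, and windows of 50 bp to each side gave a GC of 47.5%. Leaving out members in repeated sequence, chosen after seeing the data, moved none of the 9 results beyond its error.

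The share met in both was not computed in single replicate lists, nor the conservative share in the conservative list. No paired analysis was possible because both samples belong to 1 group. With 2 replicates, no read counts and no control library used here, weak coding-sequence peaks cannot be told apart from background, and 1 group allows no test between conditions.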
